A study of Mus musculus with 20 samples.

Results

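Heat shock proteins and DnaJ chaperones were taken as every gene whose single symbol in the platform annotation starts with Hspa, Hspb, Hspd, Hspe, Hsph, Hsp90 or Dnaj. The rule gave 72 of 18194 measured genes, each read from its brightest probe set (an array's group of probes against 1 transcript). These 72 genes have 174 probe sets with a single symbol. There were 26 genes with 1 probe set and 46 with several. The rule goes by name, so it also takes Hspbp1 and Hspbap1, which encode partners of heat shock proteins, and Hspb11, which encodes an intraflagellar transport protein. Hsp90ab1 had no probe set of its own under this rule and was not analysed here.

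Hsp70 proteins (the Hspa genes) bind exposed stretches of unfolded proteins and release them in a cycle driven by ATP. J-domain proteins (the Dnaj genes) bring the clients and start ATP hydrolysis, and Hsp110 proteins and other exchange factors renew the ATP. Hsp90, the mitochondrial Hsp60 and Hsp10 chamber and the ATP-independent small heat shock proteins complete the network. Under proteotoxic stress heat shock factor 1 raises a subset of these genes, while others are made at all times, and in the brain several J-domain proteins serve vesicle recycling at synapses.

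Motor and sensory cortex were dissected from 10 female C57Bl6 mice, and each region of each mouse was hybridised to 1 Affymetrix array, 20 in all. There were 6 mice with experimental autoimmune encephalomyelitis (EAE), a paralytic model of multiple sclerosis, and 4 healthy mice. EAE was induced at 8 to 12 weeks of age by injecting 100 µg of peptide from myelin oligodendrocyte glycoprotein under the skin of the flanks, 50 µg into the base of the tail, and pertussis toxin (400 ng) given on day 0 and again on day 3. The EAE mice had average grades of 2.5 to 3.5 and are labelled day 18 to 21, and the protocol gives day 21 for collection. The 4 healthy mice lived in the same cages. For them the labels describe no mock injection, so EAE here stands for immunisation and disease together. No transgene or deletion is labelled. Each of 2 cohorts held 3 EAE mice and 2 healthy ones. A second processing day holds 2 of the 20 arrays, the motor array of healthy mouse 4 and the sensory array of healthy mouse 1. No EAE array has that day, so processing day and condition cannot be fully told apart. Nothing in the labels points to pooled animals.

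All levels are deposited log2 values. The medians of the arrays were 8.22 to 8.32, and arrays within a group had correlations of 0.988 to 0.998 over probe sets. Of the excitatory neuron list, Slc17a7 and Camk2a had means of 12.8 and 14.3 over all arrays. These levels alone do not set cortex apart from other brain regions. None of the 5 measured genes of that list was called between EAE and healthy mice by limma, and their mean lay at 12.2 to 12.5 in EAE and 12.2 to 12.4 in healthy motor cortex. Other lists differed. Of 8 measured oligodendrocyte genes, 3 were lower in EAE motor cortex (Mag, Ugt8a and Opalin) and 1 in sensory cortex, of 9 endothelial genes 3 were lower in each region, and of 8 glucocorticoid target genes 3 were higher in each (Fkbp5, Plin4 and Sult1a1). Of 5 neutrophil and monocyte genes 3 were higher in motor cortex, 1 in sensory cortex and 5 with the regions averaged, led by S100a8 at 1.89 in motor cortex. Of 6 interferon genes 0 passed in motor and 3 were higher in sensory cortex, with median differences of 0.77 and 1.11. Of 8 microglia genes 2 were lower in motor cortex, 1 in sensory cortex and 5 with the regions averaged. Of 9 astrocyte genes 1 was higher in motor cortex (Gjb6) and 2 in sensory cortex (Gjb6 and Fgfr3). The neutrophil and monocyte mean was 7.63 to 8.97 in EAE and 6.99 to 7.26 in healthy sensory cortex. The interferon mean was 8.98 to 10.2 in EAE and 8.27 to 8.78 in healthy sensory cortex. In motor cortex it overlapped, at 8.29 to 9.88 in EAE and 8.27 to 8.37 in healthy mice. The microglia mean was 10.1 to 10.3 in EAE and 10.4 to 10.6 in healthy motor cortex. In sensory cortex it overlapped, at 9.95 to 10.40 in EAE and 10.34 to 10.54 in healthy mice. The oligodendrocyte mean was 11.4 to 11.7 in EAE and 11.7 to 12.1 in healthy motor cortex, and 11.4 to 12.0 in EAE and 11.8 to 11.9 in healthy sensory cortex. The part of these cells and signals in the results that follow was not tested, and in bulk tissue fewer cells of a type and less RNA per cell cannot be told apart.

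Few of the chaperone genes were called between EAE and healthy animals. For motor cortex limma, with cohort as a covariate and Benjamini-Hochberg adjustment over all 18194 genes, called 1 of the 72 at an adjusted p under 0.05. That gene, Dnajb5, was lower. Over all genes 2.25% were called in either direction and 1.74% were lower. In sensory cortex 1 of 72 was called, Hspa4, also lower, where 2.41% of all genes were called and 1.51% were lower. With the 2 arrays of each mouse averaged, 5 of 72 were called against 7.87% of all genes: Hspa1b and Hspa2 were higher, where 2.23% of all genes were higher, and Hspa4, Dnajb5 and Hspd1 were lower, where 5.64% were lower. The members' shares lay near or below those of all genes. The median log2 difference over the 72 was -0.02 in motor and -0.01 in sensory cortex, beside -0.01 and 0.00 over all genes. At an unadjusted p under 0.05 there were 7 members in motor and 15 in sensory cortex, beside 15.9% and 18.5% of all genes.

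Every EAE mouse lay beyond every healthy mouse for 3 members in motor cortex (Dnajb3, Dnajb5 and Hspd1, all lower), where 5.68% of all genes did so. In sensory cortex 5 members did so, Hsp90aa1, Hspa4, Hspb6 and Hspd1 on the lower side and Hspa1b on the higher, beside 6.49% of all genes. Hspd1 alone was separated in both regions. The share of all genes separated in both regions, or with the regions averaged, was not counted.

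**Figure D1:**
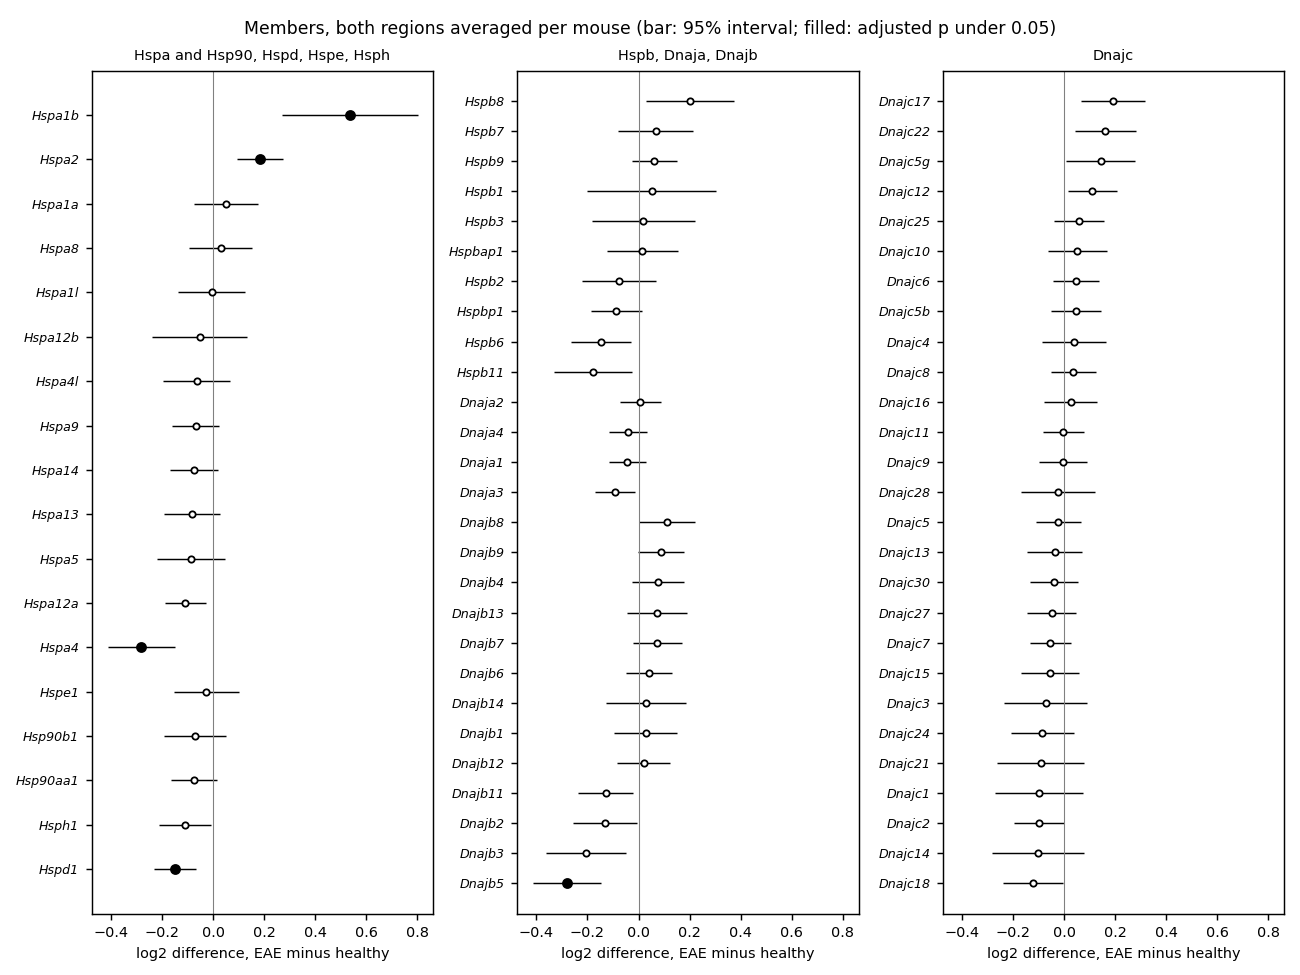
Log2 difference, EAE minus healthy, for each of the 72 genes with both regions averaged per mouse (x axis; bars are 95% intervals, 10 mice), in 3 panels by gene class and ordered by size within a class. The 5 filled points passed an adjusted p under 0.05, with Hspa1b at 0.54 on the right and Hspa4 and Dnajb5 at -0.28 on the left, and most others lie close to 0.

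Hspa1b and Hspa1a encode the stress-inducible cytosolic Hsp70 and lie close together on chromosome 17. In EAE motor cortex Hspa1b stood at 11.38, 11.72 and 12.12 (lowest, median and highest of 6), against 11.33, 11.35, 11.56 and 11.00 in healthy motor cortex. The lowest EAE array lay below the highest healthy one, and the others were above. In EAE sensory cortex it stood at 11.63, 11.81 and 12.27, against 11.46, 11.24, 11.30 and 10.93 in healthy sensory cortex. There the groups did not overlap. The log2 difference was 0.43 ± 0.13 in motor and 0.64 ± 0.15 in sensory cortex (SE), with limma adjusted p of 0.106 and 0.0514, neither past the threshold. Averaged per mouse, Hspa1b rose by 0.54 ± 0.12 on the log2 scale, 1.45-fold, with an adjusted p of 0.0245, and all 6 EAE mice lay above all 4 healthy mice. The call was lost without healthy mouse 1, 2 or 4, at adjusted p of 0.0531, 0.0685 and 0.0925, and the difference was 0.44 without mouse 4. All 3 of its probe sets were higher in EAE, by 0.43, 0.48 and 0.41 in motor and 0.64, 0.52 and 0.49 in sensory cortex.

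Hspa1a, read by 1 probe set, did not pass the threshold. It stood at 10.18, 10.46 and 10.55 in EAE motor cortex, against 10.47, 10.23, 10.46 and 10.37 in healthy motor cortex. In sensory cortex it stood at 10.20, 10.48 and 10.54 in EAE mice, against 10.42, 10.29, 10.49 and 10.31 in healthy mice. The groups overlapped in both regions, with differences of 0.03 ± 0.08 and 0.07 ± 0.07 (SE) and adjusted p of 0.888 and 0.630. Averaged per mouse the difference was 0.05 with a 95% interval of -0.07 to 0.18. The gap between the genes, Hspa1b minus Hspa1a per mouse, was 1.38 ± 0.16 in EAE and 0.89 ± 0.18 in healthy mice (SD, n = 6 and 4). It was larger by 0.49 in EAE mice, with a two-sided exact permutation p of 0.00476 over 210 splits of the mice, the smallest they can give, and 0.00952 after adjustment over 2 such pairs. Those splits exchange mice across the 2 cohorts. With mice exchanged within cohorts, an alternative chosen after seeing the data, the exact permutation p was 0.01 over 100 splits, again the smallest they can give, and 0.02 after adjustment. The pair was chosen after its values were seen, so the p describes the gap and does not support it independently. The coding sequences of the genes are near-identical copies, and how far each probe set reads the other gene was not tested.

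The bases before their starts are shown because the 2 genes gave different values while these stretches are nearly the same. In the RefSeq table of build GRCm38.p6 the 250 bases before each start, on the minus strand at chr17:34959239-34959488 for Hspa1b and chr17:34972157-34972406 for Hspa1a, are 98.8% identical. Capitals mark the 3 positions that differ.
Hspa1b: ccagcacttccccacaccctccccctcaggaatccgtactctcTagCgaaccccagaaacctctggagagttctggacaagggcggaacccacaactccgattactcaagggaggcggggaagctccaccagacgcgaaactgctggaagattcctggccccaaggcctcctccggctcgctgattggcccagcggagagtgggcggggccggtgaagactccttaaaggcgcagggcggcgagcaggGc
Hspa1a: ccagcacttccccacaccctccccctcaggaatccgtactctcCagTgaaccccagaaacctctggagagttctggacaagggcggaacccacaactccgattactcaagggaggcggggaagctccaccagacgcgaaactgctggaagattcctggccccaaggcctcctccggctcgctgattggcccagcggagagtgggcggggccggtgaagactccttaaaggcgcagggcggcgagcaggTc
Both hold the facing heat shock units GAANNTTC once, 104 to 97 bases before the start. That motif, searched on both strands of 250 bases, stands in 2199 of 32851 promoters, or 6.69%, and in 11 of the 59 members with an entry.

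**Figure D2:**
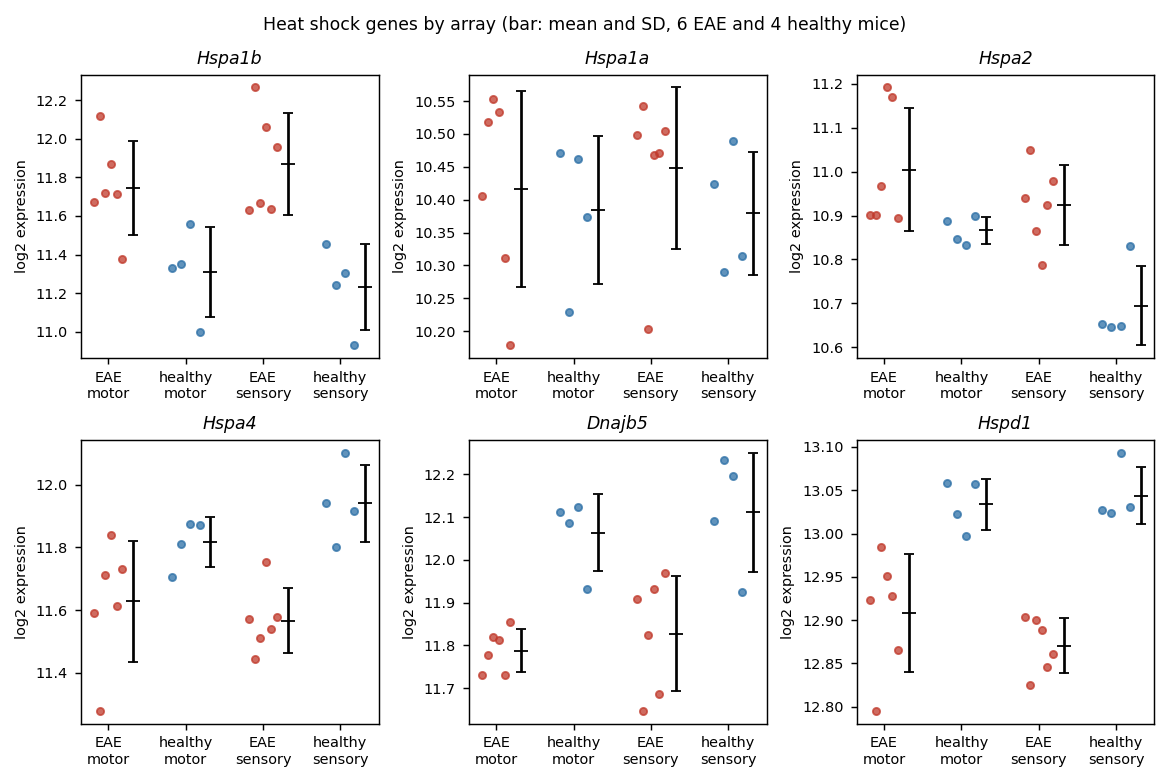
Log2 expression (y axis) of 6 chaperone genes on every array, for EAE and healthy motor cortex and EAE and healthy sensory cortex from left to right; points are arrays and bars the mean and SD of 6 EAE or 4 healthy mice. Hspa1b stands higher in EAE sensory cortex without overlap, Hspa1a overlaps in both regions, and Hspd1 stands lower in EAE without overlap in both.

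The other partners of inducible Hsp70 were not called. Of the 7 listed members of this group, Hspa1b alone was called with the regions averaged, and the group's median difference was 0.03, beside 0.00 over all genes. Hsph1, an Hsp110 exchange factor that is itself induced by heat, stood at 13.21, 13.26 and 13.31 in EAE motor cortex, against 13.43, 13.44, 13.43 and 13.19 in healthy motor cortex. One healthy array lay below all EAE arrays and the other healthy arrays lay above them. Its difference was -0.12 ± 0.06 in motor and -0.11 ± 0.05 in sensory cortex (SE), with adjusted p of 0.364 and 0.321. The other probe set of Hsph1 stood at -0.17 and -0.19, at limma adjusted p of 0.290 and 0.193 on its own. Dnajb1, the heat-inducible J-domain partner of Hsp70, differed by 0.03 ± 0.07 and 0.02 ± 0.05, and Hspb1 (Hsp27) by 0.02 ± 0.13 and 0.08 ± 0.12. Hsp90aa1, the inducible cytosolic Hsp90, stood at 14.02, 14.05 and 14.10 in EAE sensory cortex, against 14.12, 14.10, 14.15 and 14.16 in healthy sensory cortex. These groups did not overlap, yet the difference was small, -0.08 ± 0.04 (SE), with an adjusted p of 0.336. The other probe sets of Hsp90aa1 lay on both sides of 0 in sensory cortex, at -0.22, 0.10, -0.03 and 0.16.

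Hspa2 and Hspa4 belong to the constitutive cytosolic set. Hspa2, an Hsp70 best known from male germ cells, stood at 10.90, 10.93 and 11.19 in EAE motor cortex, against 10.89, 10.85, 10.83 and 10.90 in healthy motor cortex. In sensory cortex it stood at 10.79, 10.93 and 11.05 in EAE mice, against 10.65, 10.65, 10.65 and 10.83 in healthy mice. The highest healthy array reached into the EAE values in each region. Averaged per mouse the groups were apart, at 10.92 to 11.05 in EAE and 10.74 to 10.86 in healthy mice. Hspa2 rose by 0.18 ± 0.04 on the log2 scale (SE, adjusted p of 0.0218), 1.14-fold, from 1 probe set. The call was lost without EAE mouse 5 or healthy mouse 1, 2 or 3, at adjusted p of 0.0536, 0.0532, 0.0651 and 0.0836.

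Hspa4, an Hsp110 protein that recharges Hsp70 with ATP, stood at 11.44, 11.56 and 11.75 in EAE sensory cortex, against 11.94, 11.80, 12.10 and 11.92 in healthy sensory cortex. The groups did not overlap, and Hspa4 fell by 0.37 ± 0.06 on the log2 scale (SE, adjusted p of 0.0217), 1.30-fold. In motor cortex it stood at 11.28, 11.66 and 11.84 in EAE mice, against 11.71, 11.81, 11.88 and 11.87 in healthy mice. Here the groups overlapped, and the difference was -0.19 ± 0.08 with an adjusted p of 0.285. Averaged per mouse Hspa4 fell by 0.28 ± 0.06 (adjusted p of 0.0195), a call lost without any 1 of the 4 healthy mice (adjusted p of 0.0501 to 0.0711). The call rests on the brightest of 4 probe sets: the others stood at -0.08, -0.05 and 0.02 in sensory and -0.13, -0.02 and 0.08 in motor cortex. With the mean of all 4 the difference was -0.12 (adjusted p of 0.173) in sensory cortex and -0.09 (0.114) averaged per mouse. Its relative Hspa4l, also an Hsp110 protein, differed by -0.08 ± 0.07 in motor and -0.05 ± 0.06 in sensory cortex. The other probe sets of Hspa4l stood at -0.02, -0.18, -0.20 and -0.22 in motor and 0.04, -0.14, -0.26 and -0.28 in sensory cortex. Averaged per mouse and tested on their own, they stood at 0.01, -0.16, -0.23 and -0.25. Of these, -0.16 and -0.23 passed, at limma adjusted p of 0.0412 and 0.0380. Hspa8, the constitutive Hsc70, differed by 0.00 ± 0.07 and 0.06 ± 0.07, with groups at 14.08 to 14.39 in EAE and 14.15 to 14.31 in healthy motor cortex.

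**Figure D3:**
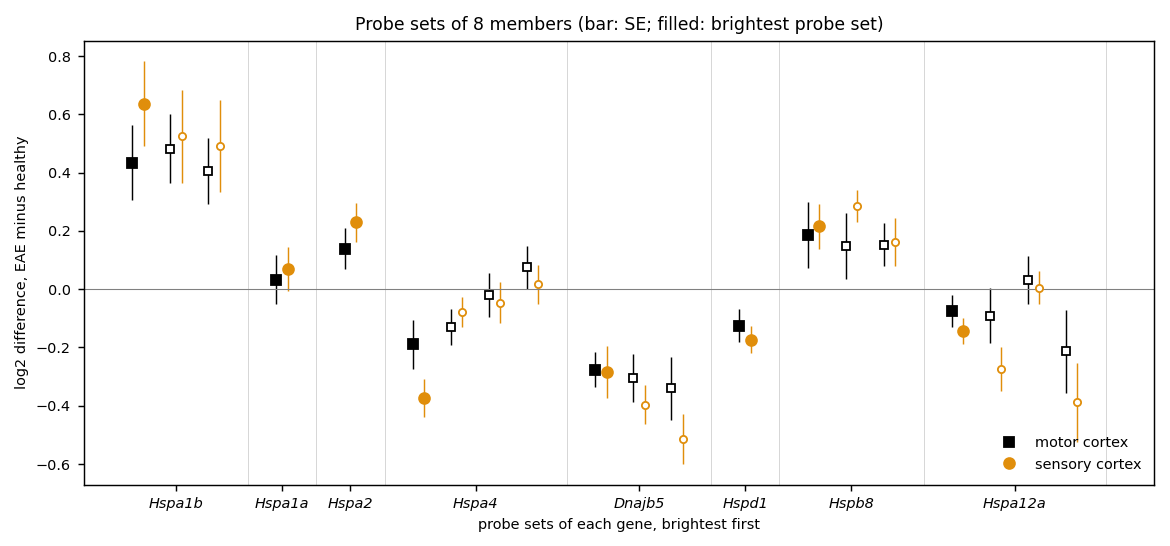
Log2 difference, EAE minus healthy (y axis; bars are SE), for every probe set of 8 genes, brightest first and filled, in motor cortex (black squares) and sensory cortex (orange circles). The 3 probe sets of Hspa1b and of Dnajb5 each lie on 1 side of 0 in both regions, whereas for Hspa4 the brightest alone lies far from 0 in sensory cortex.

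Dnajb5, a cytosolic J-domain protein close to Dnajb1, was the only member called within motor cortex. It stood at 11.73, 11.79 and 11.86 in EAE motor cortex, against 12.11, 12.09, 12.12 and 11.93 in healthy motor cortex. The groups did not overlap, and Dnajb5 fell by 0.28 ± 0.06 (SE, adjusted p of 0.0284), 1.21-fold. In sensory cortex it stood at 11.65, 11.87 and 11.97 in EAE mice, against 12.09, 12.23, 12.20 and 11.92 in healthy mice. One healthy array, of mouse 4, lay among the EAE values, and the difference was -0.28 ± 0.09 with an adjusted p of 0.121. Averaged per mouse it fell by 0.28 ± 0.06 (adjusted p of 0.0212), a call lost without healthy mouse 1, 2 or 3 (adjusted p of 0.0590, 0.0704 and 0.0788). The other probe sets agreed in sign, at -0.31 and -0.34 in motor and -0.40 and -0.51 in sensory cortex. Tested on their own, both passed in sensory cortex, each at a limma adjusted p of 0.0324. Neither passed in motor cortex (0.108 and 0.179). With the mean of all probe sets Dnajb5 was the only member called in sensory cortex. Dnajb6, which keeps polyglutamine proteins soluble, and Dnajb2, a J-domain protein enriched in neurons, differed by 0.02 ± 0.05 and -0.13 ± 0.07 in motor and 0.06 ± 0.05 and -0.14 ± 0.06 in sensory cortex, none past the threshold. Dnajb3 was lower in every EAE mouse of the motor comparison, at 5.92, 6.14 and 6.22 against 6.22, 6.26, 6.39 and 6.41 in healthy mice, with a limma adjusted p of 0.160. It is 1 of 12 members whose probe set lies below the median probe set of 8.27, where background compresses differences.

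In mitochondria, Hspd1 (Hsp60) forms the folding chamber and Hspe1 (Hsp10) its lid. Hspd1 stood at 12.80, 12.93 and 12.99 in EAE motor cortex, against 13.06, 13.02, 13.00 and 13.06 in healthy motor cortex. In sensory cortex it stood at 12.82, 12.87 and 12.90 in EAE mice, against 13.03, 13.02, 13.09 and 13.03 in healthy mice. The groups did not overlap in either region, with differences of -0.13 ± 0.05 and -0.17 ± 0.04 (SE) and adjusted p of 0.287 and 0.0636. Averaged per mouse Hspd1 fell by 0.15 ± 0.04 on the log2 scale (adjusted p of 0.0380), 1.11-fold. That call was lost without EAE mouse 2, 4, 5 or 6 or any healthy mouse, at adjusted p of 0.0539 to 0.116. Hspe1 differed by -0.04 ± 0.08 in motor and -0.01 ± 0.06 in sensory cortex, and by -0.03 averaged per mouse, with a 95% interval of -0.15 to 0.10. Hspd1 minus Hspe1 was 0.27 ± 0.11 in EAE and 0.40 ± 0.05 in healthy mice (SD, n = 6 and 4), a difference of -0.12 with an exact permutation p of 0.0714, also after adjustment over 2 pairs, and of 0.08 with mice exchanged within cohorts. Hspa9, the mitochondrial Hsp70, differed by -0.04 ± 0.06 in motor and by -0.09 ± 0.04 in sensory cortex, and 1 of the 8 measured mitochondrial members, Hspd1, was called with the regions averaged.

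Hspd1 and Hspe1 face away from each other across a short shared stretch on chromosome 1, shown because annotated starts of both genes lie at its ends. Hspd1 has 2 annotated starts in the table. The stretch ends at the one before the Hspe1 start, and the other lies beyond that start. The 215 bases between these starts, at chr1:55087933-55088147 in GRCm38.p6 (RefSeq), read as follows on the plus strand, that of Hspe1. Capitals mark 18 bases covered by 2 overlapping matches of the 3-unit heat shock element, which is GAANNTTC followed after 2 further bases by GAA.
Hspd1 and Hspe1: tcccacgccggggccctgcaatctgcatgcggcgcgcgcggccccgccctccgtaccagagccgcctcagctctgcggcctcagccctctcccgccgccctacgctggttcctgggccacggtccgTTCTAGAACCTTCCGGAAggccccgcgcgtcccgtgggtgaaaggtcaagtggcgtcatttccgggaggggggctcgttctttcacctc
Searched on both strands of the 250 bases before each start, that element stands in 153 of 32851 promoters, or 0.466%, and among the 59 members with an entry in Hspd1, Hspe1 and Dnajb6. It contains the facing pair of units, so a match of the longer motif is also a match of the shorter.

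No endoplasmic reticulum chaperone was called. Of 12 measured members 0 were called by limma in either region or with the regions averaged, and the median differences were -0.02 in motor and -0.01 in sensory cortex, beside -0.01 and 0.00 over all genes. Hspa5 (BiP), the Hsp70 of this compartment, stood at 13.06, 13.14 and 13.21 in EAE motor cortex, against 13.20, 13.32, 13.35 and 12.99 in healthy motor cortex, with a difference of -0.08 ± 0.07 (SE) and an adjusted p of 0.630. The groups overlapped. Hsp90b1 (Grp94), the Hsp90 of the compartment, differed by -0.11 ± 0.07 and -0.03 ± 0.06. Its other, dimmer probe set gave larger differences, -0.19 ± 0.11 (motor) and -0.27 ± 0.11 (sensory). Tested on its own it passed in neither region, at limma adjusted p of 0.486 and 0.248. The size of the Hsp90b1 difference in sensory cortex thus depended on the probe set. Among the J-domain partners of BiP, Dnajb9 differed by 0.08 ± 0.07 and 0.10 ± 0.05, Dnajb11 by -0.13 ± 0.07 and -0.12 ± 0.05, and Dnajc3 by -0.12 ± 0.09 and -0.02 ± 0.08 (motor and sensory cortex, SE). At an unadjusted p under 0.05 Dnajb11 passed in sensory cortex. The endoplasmic reticulum stress element, CCAAT and CCACG with 9 bases between them (both strands, 250 bases), stands before the starts of Hspa5, Hsp90b1 and Dnajc3 and of 0.113% of all promoters.

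The small heat shock proteins, which hold unfolded proteins without ATP, showed no called gene in either region among 7 measured. Hspb8, the partner of Bag3 in clearing aggregates, stood at 9.39, 9.53 and 9.69 in EAE sensory cortex, against 9.38, 9.17, 9.47 and 9.23 in healthy sensory cortex. The groups overlapped through 1 healthy array, and the difference was 0.22 ± 0.08 with an adjusted p of 0.161, next to 0.19 ± 0.11 in motor cortex. All 3 of its probe sets stood above 0 in both regions. Tested on its own in sensory cortex, another probe set of Hspb8 passed, at 0.28 with a limma adjusted p of 0.0438. The brightest and the dimmest did not (0.184 and 0.341). Hspb6 (Hsp20) stood at 8.81, 9.12 and 9.17 in EAE sensory cortex, against 9.23, 9.28, 9.25 and 9.24 in healthy sensory cortex. The groups did not overlap, and the difference was -0.17 ± 0.07 (adjusted p of 0.209). Cryab, a small heat shock protein of oligodendrocytes and astrocytes outside the naming rule, was called in both regions. It stood at 11.35, 11.51 and 11.87 in EAE motor cortex, against 12.04, 12.40, 12.01 and 12.05 in healthy motor cortex. The groups did not overlap, and Cryab fell by 0.55 ± 0.11 in motor and 0.54 ± 0.10 in sensory cortex (SE, adjusted p of 0.0254 and 0.0312).

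Among synaptic J-domain proteins, Dnajc5, the cysteine string protein of synaptic vesicles, differed by -0.03 ± 0.05 in motor and -0.01 ± 0.04 in sensory cortex, and Dnajc6 (auxilin), which uncoats clathrin vesicles with Hsc70, by 0.06 ± 0.06 and 0.04 ± 0.05. Of the 27 Dnajc members 0 were called by limma in either region or with the regions averaged. Dnajc17, a nuclear protein tied to splicing, had the largest Dnajc difference, at 9.27, 9.44 and 9.87 in EAE sensory cortex against 9.43, 9.02, 9.25 and 9.04 in healthy sensory cortex. The groups overlapped through 1 healthy array, with a difference of 0.31 ± 0.12 and an adjusted p of 0.201. Of its 3 probe sets the brightest alone gave an unadjusted p under 0.05 there.

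Around the chaperones, 83 of 87 listed related genes were measured, Hsf1 not among them. In each region 1 was higher and 1 lower, the same genes in both. Fkbp5, an Hsp90 co-chaperone and glucocorticoid target, rose by 1.04 ± 0.14 in motor and 1.13 ± 0.15 in sensory cortex (SE, adjusted p of 0.00422 and 0.0109), with 10.64 to 11.55 in EAE and 10.07 to 10.33 in healthy motor cortex. Cryab was the lower gene. With the regions averaged, the co-chaperones Bag1 and Fkbp4, at -0.14 and -0.21, and the endoplasmic reticulum genes Creld2 and Pdia4, at -0.29 and -0.18, were called too. Limma called 0 of 5 heat shock factors and regulators, 0 of 15 chaperonin and prefoldin genes and 0 of 8 mitochondrial quality genes in either region. It also called 0 of 19 endoplasmic reticulum stress genes in either region, though the median of that list was -0.08 in motor cortex, -0.12 in sensory cortex and -0.10 averaged, beside -0.01, 0.00 and 0.00 over all genes.

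The effect of EAE was not shown to differ between regions. Fitted on each mouse's motor minus sensory value, limma called 0 of 72 members and 0% of all 18194 genes, and at an unadjusted p under 0.05 there were 1 member and 422 genes. That member was Hspa12b, an atypical Hsp70 of endothelium, whose EAE effect was 0.18 lower in motor than in sensory cortex (-0.18 ± 0.08, 95% interval -0.35 to -0.02). For Hspa4 the motor minus sensory effect was 0.19 with an interval of -0.01 to 0.38. For Hspa1b it was -0.20 with an interval of -0.49 to 0.08, so a sizeable difference between regions in either gene was not resolved by 10 mice.

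The last comparison set motor against sensory cortex. Pairing the 2 arrays of each mouse, limma called 9 of 72 members, where 13.2% of all genes were called. Of these, 6 were higher in motor cortex (Dnajc2, Dnajc6, Hspb11, Dnajc12, Dnajb1 and Dnajc15), where 7.67% of all genes were higher, and 3 were lower (Hspb3, Hspa12a and Dnajb2), where 5.56% were lower. Again these shares lay close to those of all genes.

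Hspb3, a small heat shock protein that assembles with Hspb2 and is known from muscle, had the widest gap of the 72. It stood at 9.19, 9.59 and 9.69 in EAE motor cortex, against 9.67, 10.06 and 10.24 in EAE sensory cortex. In healthy mice the motor values were 9.56, 9.45, 9.29 and 9.63, against sensory values of 10.13, 9.84, 10.00 and 10.00. It was lower in the motor array in all 10 mice, by 0.50 ± 0.04 on the log2 scale (SE, adjusted p of 4.96e-06), 1.41-fold. The gap was -0.49 ± 0.06 within EAE mice and -0.51 ± 0.07 within healthy mice (adjusted p of 0.00239 and 0.000602). Hspb3 has 1 probe set, and it did not pass the threshold between EAE and healthy mice, at 0.03 ± 0.10 in motor and 0.01 ± 0.10 in sensory cortex.

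**Figure D4:**
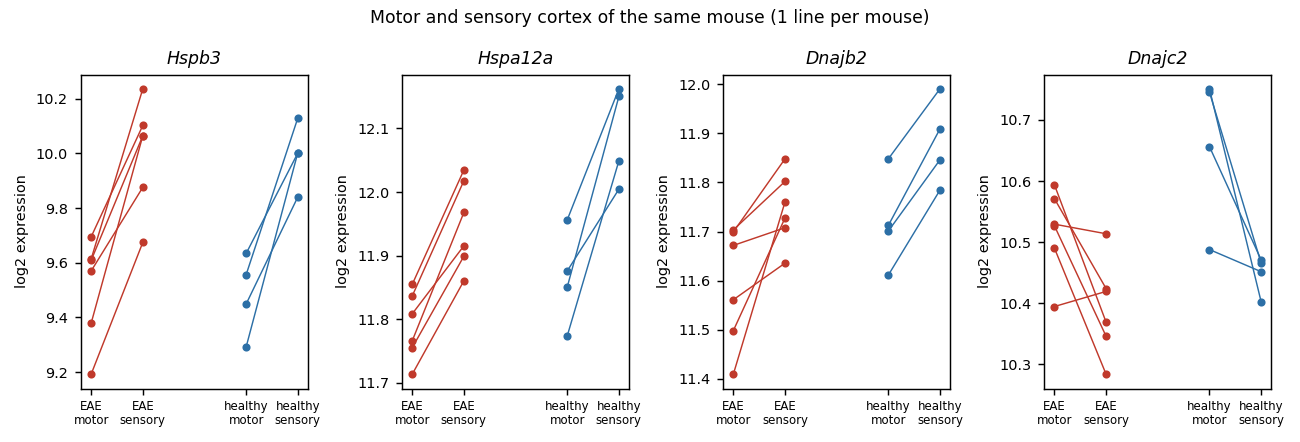
Log2 expression (y axis) in motor and sensory cortex of the same mouse for 4 genes, with 1 line per mouse, EAE mice in red on the left and healthy mice in blue on the right. Hspb3, Hspa12a and Dnajb2 are lower in motor cortex in all 10 mice, and Dnajc2 is higher in 9 of 10. The share of all genes with such counts was not determined.

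Hspa12a, an atypical Hsp70 of neurons and other cells, was lower in motor cortex in all 10 mice as well. It stood at 11.71, 11.79 and 11.85 in EAE motor cortex, against 11.86, 11.94 and 12.03 in EAE sensory cortex. The 6 EAE arrays of each region did not overlap, and over all mice the gap was -0.19 ± 0.03 (adjusted p of 0.000593). Of its 3 other probe sets, those at -0.27 and -0.25 went the same way and the third stood at -0.02. Dnajb2 was lower in all 10 mice, by 0.16 ± 0.03 (adjusted p of 0.00519). Dnajc2, which binds ribosomes and meets proteins as they are made, was higher in motor cortex in 9 of 10 mice, by 0.16 ± 0.04 (adjusted p of 0.0143). Its 3 other probe sets stood at -0.03, 0.16 and -0.08, and with the mean of all 4 the call was lost, at 0.05 with an adjusted p of 0.295. Those at 0.16 and -0.08 averaged 7.08 and 5.09, below the median probe set of 8.27. Dnajc6, Dnajb1, Dnajc15 of the mitochondrial inner membrane, Dnajc12 and Hspb11 were higher by 0.10 to 0.15, with adjusted p of 0.0294 to 0.0450. None of these 5 calls held whichever mouse was left out. Dnajb1 and Dnajc15 were each lost on leaving out 9 of the 10 mice in turn and Dnajc12 on 8. Hspb11 was lost on 6 and Dnajc6 on 5, at adjusted p up to 0.105. The differences stayed above 0 in these fits, at 0.09 to 0.11 for Dnajb1 and 0.09 to 0.12 for Dnajc15. With the mean of all probe sets Dnajc6 and Hspb11 were lost too, at 0.03 and 0.05 (adjusted p of 0.698 and 0.438). The other probe set of Hspb11 averaged 5.39, below the median probe set of 8.27. Dnajc15 and Dnajc5, the latter not called, were also higher in motor cortex in all 10 mice. Dnajb1, Dnajb4, Dnajc6, Dnajc12 and Hsph1 were higher in 9 mice, and Dnajb7 and Hspa4l were lower in 9. The share of all genes with such counts was not determined.

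Within healthy mice alone, 4 of 72 were called between regions, beside 7.35% of all genes: Hspb3, Hspa12a (-0.23 ± 0.05) and Hspb2 (-0.25 ± 0.06) were lower in motor cortex and Dnajc17 (0.30 ± 0.07) was higher. Except for Hspb3 these calls were each lost without 3 of the 4 mice: Hspa12a and Dnajc17 without mouse 2, 3 or 4 (adjusted p up to 0.146 and 0.161), and Hspb2 without mouse 1, 3 or 4 (up to 0.178). Within EAE mice 1 of 72, Hspb3, was called, beside 4.00% of all genes. In EAE mice Hspa12a stood at -0.16 ± 0.04, Hspb2 at -0.07 ± 0.06 and Dnajc17 at 0.05 ± 0.10, and the test of the difference between conditions gave 0 calls, as described above. Markers of other cells also differed between the regions. Of 8 mural cell genes 4, of 5 meningeal genes 3 and of 9 astrocyte genes 4 were lower in motor cortex. The excitatory neuron gene Neurod6 was higher. Of 10 immediate early genes 3 were higher (Fosb, Egr2 and Npas4). Of 3 measured striatal genes 1, Ppp1r1b, was lower, and the differences of that list ran from -0.47 to -0.06. Ppp1r1b was also called lower within healthy mice and within EAE mice. Of 6 inhibitory neuron genes 2 were higher and 2 lower, the called genes being Slc32a1, Pvalb, Sst and Vip. Of 9 endothelial genes 2 (Pecam1 and Esam) and of 6 interferon genes 3 were lower. The mural mean was 9.35 to 9.47 in EAE motor and 9.55 to 9.65 in EAE sensory cortex, and 9.45 to 9.58 in healthy motor and 9.50 to 9.67 in healthy sensory cortex. The part of these markers in the differences of Hspb3, Hspb2 and the other members was not tested.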

How the data were processed

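The deposited values are log2 expression per probe set. Per the labels' protocols, mice were perfused, the regions were dissected from slices with an atlas, and total RNA was biotin labelled for Affymetrix arrays; the submitters' processing notes name RMA and Partek, whose versions are not given in the sources used here. Background removal, equalising of arrays and summarising of probes by RMA compress small differences at low signal. No raw scans were used here, and precision is limited by the number of arrays.

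Gene names are those of the supplied platform annotation: 34958 of 45101 had 1 symbol, 932 several and 9211 were not listed, and only those with 1 symbol were used. Among the 932 with several symbols, 3 probe sets join a member's symbol with another and were left out. All 72 symbols matched a RefSeq gene table of GRCm38.p6, and 59 had a promoter entry.

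Differences were fitted over 18194 genes with limma 3.58.1 (lmFit, eBayes; two-sided tests; R 4.3.3), with a cohort term and Benjamini-Hochberg adjustment, on unchanged deposited values, and tested on simulated data. Each adjusted p printed for a gene is limma's. Motor and sensory cortex were fitted separately, then each mouse's mean and each mouse's motor minus sensory value. The mouse was the block for motor against sensory cortex, since the labels' animal numbers tie both arrays to 1 animal. The deviations from group means of a mouse's 2 arrays correlated at 0.163 to 0.587, except EAE mouse 3 at -0.0316. The p-values measure the spread between these mice. Gene pairs were tested by exact permutation.

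The members, lists, tests and rule for named genes were chosen with earlier results of these data known. The rule took called members, the 10 members of smallest p in each region, the 5 of smallest p between regions and for the difference of the effects, and a list of well-known chaperones; of related genes, those called in a region, Fkbp5 and Cryab. Bag1, Fkbp4, Creld2 and Pdia4 and the marker genes were named after their values were seen. Alternatives were other scaling, filters, probe set rules, variance models, blocks, cohorts and left-out mice or arrays.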

Additional observations from a re-analysis of the deposited data

Results flagged for a closer look

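Of 164 sets of a named gene and group, 9 held an array far from the others of its group by Dixon's ratio, and chance flags about 1 in 20 groups. In healthy motor cortex, mouse 4 had the lowest Dnajb6, at 13.29 against 13.44 for the next array, and the lowest Hsph1, at 13.19 against 13.43. In healthy sensory cortex, mouse 3 had the highest Hspb1, at 11.11 against 10.76, and the highest Hspd1, at 13.09 against 13.03. In the same group mouse 4 had the highest Hspa2, at 10.83 against 10.65, and mouse 2 the lowest Hspb2, at 7.75 against 8.13. In EAE sensory cortex, mouse 3 had the lowest Hspa1a, at 10.20 against 10.47, and the lowest Hspb6, at 8.81 against 9.09, and mouse 6 had the highest Dnajb6, at 13.49 against 13.41. The motor array of healthy mouse 4 is 1 of 2 arrays of the second processing day, both from healthy mice. The cause of these values was not tested.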

How the results depend on the processing

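The directions of Hspa1b, Hspa2, Hspa4, Dnajb5 and Hspd1 held wherever the gene was refitted on its brightest probe set or the mean of its probe sets, while their calls did not. On its own, 1 of the 4 probe sets of Hspa4 lay above 0, at 0.08 in motor and 0.02 in sensory cortex. In motor cortex the count of called members fell to 0 with arrays centred on their median, within cohort 1 and within cohort 2, and, in an alternative chosen after seeing the data, with every probe set tested on its own. In sensory cortex it was 2 without the cohort covariate, 2 after quantile normalization, 6 without dim genes and 4 with a variance trend. It was 5 with all arrays and the mouse as a random block, Dnajb5 among them. With every probe set tested on its own it was 3, namely Dnajb5, Hspa4 and Hspb8. With the mean of all probe sets it was 1, Dnajb5 in place of Hspa4. Within cohort 1, within cohort 2 or without the array of the second processing day it was 0. With the regions averaged it was 0 within cohort 1, within cohort 2 and without the mice of that day. Within the cohorts Hspa1b stood at 0.50 and 0.57, Hspa2 at 0.18 and 0.19, Hspa4 at -0.30 and -0.27, Dnajb5 at -0.35 and -0.21, and Hspd1 at -0.14 and -0.15. The refits within a cohort or without the second day hold fewer mice. The part of fewer mice, of the cohort and of the processing day in the lower counts was not tested. Motor against sensory cortex gave 4 without the mice of the second day.

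An EAE and a healthy mouse with the same number are separate animals that share the number and, except for number 3, the cohort (correlation -0.25 to 0.40). With that replicate block the counts were 1 in motor cortex (Hspa1b in place of Dnajb5), 0 in sensory cortex and 2 with the regions averaged. Without the mouse block, motor against sensory cortex gave 3 members, and 1, Hspb3, in healthy mice.

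Leaving out each mouse in turn gave 0 to 1 calls in motor cortex, 0 to 3 in sensory cortex, 0 to 6 with the regions averaged, 0 to 0 for the difference of the effects, 4 to 9 between regions, 1 to 3 in healthy mice and 1 to 1 in EAE mice. Dnajb5 in motor cortex was lost without EAE mouse 2 or 5 or healthy mouse 1, 2 or 3 (adjusted p up to 0.115), and Hspa4 in sensory cortex without EAE mouse 5 or any healthy mouse (up to 0.103). Hspb3, Hspa12a, Dnajb2 and Dnajc2 were called between regions whichever mouse was left out, though Dnajc2 was not with the mean of all probe sets and Dnajb2 was not without the mouse block. Scaling moved the median of all genes by at most 0.02. Of 31 other named members, the sign turned under some alternative for 13 in motor and 14 in sensory cortex, at sizes up to 0.0910 and 0.0945.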
